A study of Saccharomyces cerevisiae with 37 samples.

Results

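The proteins of the small (40S) ribosomal subunit of budding yeast, Saccharomyces cerevisiae, are encoded by the RPS genes, most of which exist as copies A and B that encode the same or nearly the same protein. Every gene whose array annotation names it RPS with a number, and A or B where there are copies, was taken as a member. This gave 52 genes on 65 probe sets, of 5449 genes measured. Of the 52, 7 are single-copy genes (RPS2, RPS3, RPS12, RPS13, RPS15, RPS20 and RPS31) and 45 belong to copy pairs.

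The 40S subunit binds messenger RNA and reads its codons, and each subunit needs 1 copy of each RPS protein. In growing yeast the mRNAs of ribosomal proteins are among the most abundant, and their transcription is shut down together in many stresses. Copies of a pair share a coding sequence that is almost the same but differ in their promoters, introns and untranslated regions, which are the parts known to set transcription, splicing and mRNA stability. An array probe set may therefore see both copies: 13 of the 52 members have a brightest probe set marked as shared, and 49 have an unshared probe set.

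All cells were strain Y262, whose RNA polymerase II is temperature-sensitive, grown in YPD at 26 °C. An equal volume of medium at 49 °C was added at time 0, which brought the cells to 37 °C and stopped transcription. There were 4 cultures: reference 1 and reference 2 with no stress before the shift, 1 given 0.3 mM hydrogen peroxide (oxidative stress), and 1 given 0.1% methyl methanesulfonate, an alkylating agent (DNA damage). Peroxide was given 25 min and methyl methanesulfonate 40 min before the shift, if the labels list times and agents in the same sequence. Each culture had arrays at 0, 5, 10, 15, 20 and 30 min, time 0 being measured by a pair of technical arrays. Times of 40, 50 and 60 min were added for every culture but reference 2, whose late samples are called outliers in the labels and were not used. In what follows, values of the 4 cultures come in a fixed sequence, called culture order: reference 1, reference 2, oxidative stress, then DNA damage. They had 10, 7, 10 and 10 arrays. With 1 culture for each stress, biological spread was known from the 2 references alone, and stressed cultures were assumed to vary as they did. cDNA was primed with poly(T), so the signal could also depend on poly(A) tail length, which was not tested.

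A level is given in log2 relative to the median of the named probe sets on the same array, called the median gene. A slope is the straight-line change of that level over 0 to 30 min, in log2 per 10 min. A slope of 0 is the pace of this array median, and a negative slope is faster decay. The tested genes had a median slope of 0.030 in the references, so the median tested gene is not the same as this array median. In culture order, half-lives of the median tested gene were 25.2, 33.2, 34.4 and 30.8 min on the deposited scale. The technical arrays at time 0 differed by 0.45, −0.14, 0.37 and 0.017 in their median probe set as deposited, which is why each array was centred. After centring, the 52 genes differed between the technical arrays by a median of 0.022 to 0.038, and at most by 0.20 (RPS14B, oxidative stress). The stress treatments left marks on other genes at time 0: SRX1, the sulfiredoxin, rose by 5.46 under oxidative stress (limma, adjusted p = 2.15e-05) and by 4.77 under DNA damage (adjusted p = 0.000142). TSA2, a peroxiredoxin, rose by 5.02 and 3.05 (limma, adjusted p = 2.15e-05 and 0.000376). MAG1, a DNA glycosylase for alkylated bases, rose by 1.28 under DNA damage (limma, adjusted p = 0.0357) and by 1.35 under oxidative stress (adjusted p = 0.0162). RPO21, the largest subunit of RNA polymerase II, differed by −0.11 and −0.29 and did not pass. All 52 members were above the filter on low values and were among the 3899 genes tested.

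In unstressed cells most RPS mRNAs decayed at about the pace of the median gene. The median slope of the 52 genes was 0.012 in reference 1 and 0.017 in reference 2, and the half-life at their median slope was 24.0 and 32.3 min as deposited. The 7 single-copy genes lay close together, between −0.001 and 0.029 in reference 1 and between 0.010 and 0.057 in reference 2. The 45 duplicated genes spread over −0.42 to 0.13 and −0.25 to 0.067. Across the 52 genes the slopes of the references correlated at r = 0.83 (rho 0.77), over points that share the 2 sets of arrays.

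A few copies decayed faster than the median gene in the references. RPS7B, RPS27A, RPS26B, RPS24B and RPS0B passed the test, and 0 members passed as slower, also at an unadjusted p under 0.05. This is 5 of 52 members, where 33% of all 3899 genes passed in either direction and 14.6% passed as faster. The median of the members, 0.016, was near the 0.030 of all tested genes, and its sign turned with the processing (−0.0010 on the deposited scale, −0.0044 after quantile normalization, −0.012 over 5 to 30 min). With slopes over 5 to 30 min, none of the 5 passed. They were also the 5 members with the lowest mean slope over the 4 cultures, each gene being read from its brightest probe set. RPS18B was placed by a shared probe set in this order, and its unshared one had lower slopes, given below.

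RPS7B had slopes of −0.42, −0.22, −0.57 and −0.70 in culture order, so it lay below 0 in all 4 and lowest under DNA damage. The mean of the references was −0.32 (SE 0.062, limma, adjusted p = 0.0296, n = 2). RPS27A, for a zinc-binding 40S protein, had slopes of −0.41, −0.18, −0.49 and −0.66 (reference mean −0.30, SE 0.068, limma, adjusted p = 0.0391). RPS26B, for a protein that touches mRNA near the exit of its channel, had −0.23, −0.25, −0.48 and −0.86 (reference mean −0.24, SE 0.039, limma, adjusted p = 0.0222). In each of these genes the DNA damage culture was lowest and the oxidative stress culture second lowest.

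RPS24B had slopes of −0.31, −0.14, −0.48 and −0.85 (reference mean −0.23, SE 0.058, limma, adjusted p = 0.0479). RPS0B, whose protein lies on the solvent side of the 40S, had −0.20, −0.14, −0.37 and −1.05 (reference mean −0.17, SE 0.041, limma, adjusted p = 0.0426). RPS9A, for a protein tied to the accuracy of decoding, was the sixth in this order and varied most between references, with −0.41 and −0.038. Its slopes under stress were −0.34 and −0.87, and its reference mean of −0.22 did not pass (limma, adjusted p = 0.149). Except in RPS9A, oxidative stress stood below both references in all of these genes.

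At the other end, RPS30A, RPS14A, RPS26A, RPS20, RPS31 and RPS25A had the highest mean slopes over the 4 cultures. RPS14A, for a protein of the 40S platform, had slopes of 0.036, 0.050, 0.002 and −0.037. RPS26A had 0.016, 0.034, −0.003 and −0.004, while its partner RPS26B is among the fastest. RPS30A, on a shared probe set, had 0.044, 0.043, −0.010 and −0.005, and RPS25A had 0.051, 0.067, 0.015 and −0.099. The slow end holds 2 single-copy genes. RPS20, whose protein is a target of the ubiquitin ligase Hel2 on collided ribosomes, had 0.029, 0.045, −0.011 and −0.017. RPS31, which encodes ubiquitin fused to a 40S protein, had 0.026, 0.057, −0.039 and −0.007. Near the middle of the order stood RPS9B and RPS23B, with mean slopes of −0.078 and −0.072, which differ by less than the spread between references (SD 0.054 over the members).

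**Figure D1:**
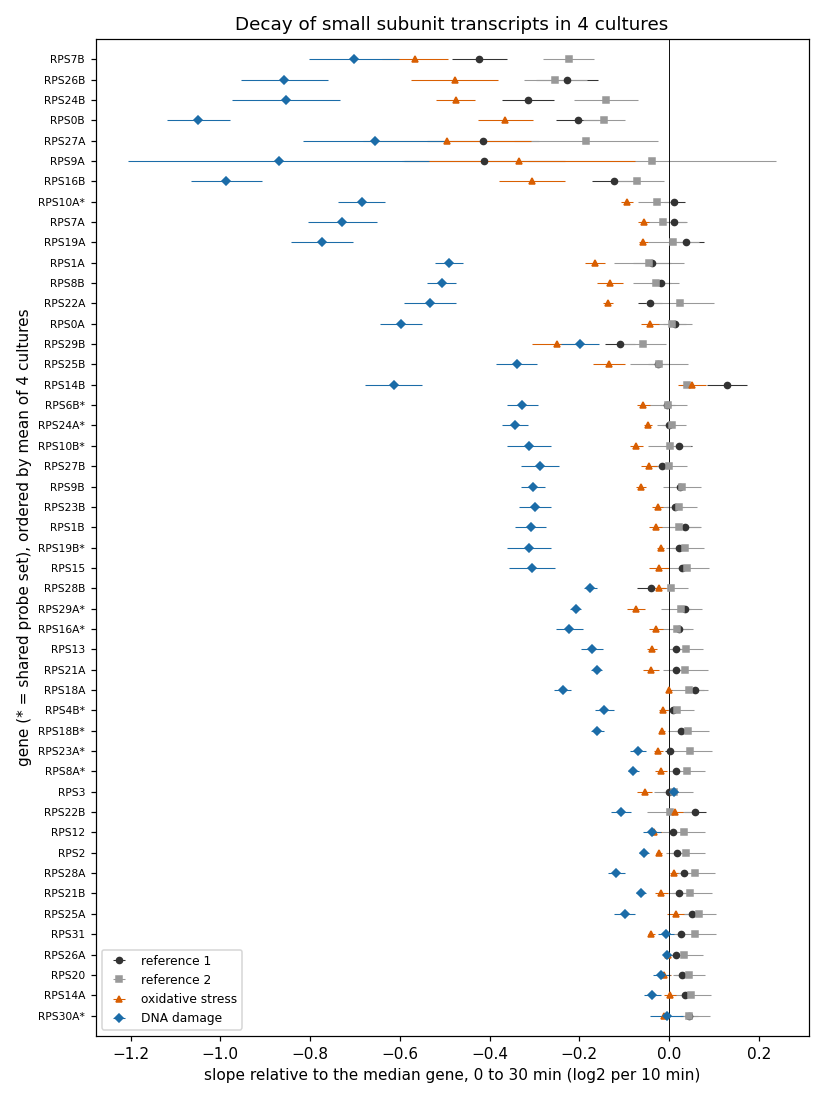
Slope of 48 of the 52 RPS genes (y axis, ordered by the mean of 4 cultures) relative to the median gene (x axis, log2 per 10 min, 0 to 30 min), with 1 point per culture and the standard error of the line through its arrays as bar. Most genes lie near 0 in the references, and the DNA damage points lie left of the others in 44 of these 48 genes.

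The level of the RPS mRNAs at the moment of the shift was next compared, which asks how the stress itself had changed them. Under oxidative stress the RPS genes stood close to their level in the references. The medians of the 52 genes were 3.96 in reference 1, 3.86 in reference 2 and 3.74 under oxidative stress, in log2 above the median gene; this places the probe sets on the arrays and does not measure abundance between genes. The median difference was −0.13, against −0.063 over all tested genes. No member passed (limma, 0 of 52, where 4.92% of all genes passed), and 3 were lower at an unadjusted p under 0.05, where 6.49% of all genes were. As deposited the median difference turned to 0.22.

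RPS14B, RPS9A and RPS28B had the largest differences under oxidative stress. RPS14B stood at 1.56, 2.09, 1.04 and 1.59 in culture order. Its mRNA is known to be held low by the Rps14 protein, which binds the unspliced transcript. The oxidative stress value lay below both references, by −0.79 from their mean (SE 0.26, limma, adjusted p = 0.172). RPS9A stood at 2.13, 2.16, 1.46 and 1.42, so both stressed cultures lay below both references (oxidative stress −0.69, SE 0.21, limma, adjusted p = 0.138). RPS28B stood at 3.16, 3.10, 2.47 and 1.81 (oxidative stress −0.66, SE 0.21, limma, adjusted p = 0.15). None of these 3 differences passed.

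Under DNA damage all RPS genes stood lower at time 0, although 1 passed the test alone. The median of the 52 genes was 3.35, and the median difference from the references was −0.52, against −0.13 over all tested genes. All 52 members lay below 0. RPS28B passed (1 of 52, where 2.26% of all genes passed), and 28 were lower at an unadjusted p under 0.05, where 13.7% of all genes were. The DNA damage culture was the lowest of the 4 in 51 of 52 members and in 42.2% of all tested genes, with RPS14B as the exception. Taken from reference 1 alone the median was −0.58 and from reference 2 alone −0.46, while the references differed by 0.12.

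The size of this difference rests on the scaling. After quantile normalization the median difference was −0.032 and 22 of the 52 members turned sign. RPS probe sets lie near the upper end of the arrays, and that end moved with the culture: the brightest gene probe set stood at 4.73, 4.78, 4.60 and 4.21 above the array median at time 0, in culture order. The members lay below it by a median of 0.77, 0.92, 0.85 and 0.86. Its part in the level result was not tested. Single-copy and duplicated genes were alike in this comparison, with 7 of 7 and 44 of 45 lowest under DNA damage.

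RPS28B was the member that fell most. The Rps28b protein binds the 3′ untranslated region of its own mRNA and, with Edc3, brings on its decapping. Its technical arrays read 3.07 and 3.26 in reference 1, 3.11 and 3.10 in reference 2, 2.55 and 2.39 under oxidative stress, and 1.80 and 1.81 under DNA damage. No stressed array reached the level of a reference array. The fall under DNA damage was −1.33 (SE 0.21, limma, adjusted p = 0.0193, 1 culture against 2). It did not pass after quantile normalization, nor with only the first or only the second array of time 0. The next members were RPS10B (−1.04, limma, adjusted p = 0.0846) and RPS10A (−0.90, adjusted p = 0.0841), both on shared probe sets, and RPS8B (−0.74, adjusted p = 0.138).

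Directly compared, the members stood higher under oxidative stress than under DNA damage by a median of 0.38, against 0.11 over all genes. None passed (limma, 0 of 52, where 0.205% of all genes passed), and 3 were higher at an unadjusted p under 0.05, where 6.92% of all genes were. These 3 were RPS10B (0.79), RPS10A (0.78) and RPS28B (0.67). Quantile normalization turned the median to −0.022 and the sign of 31 members, while with deposited values the median was 0.76.

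**Figure D2:**
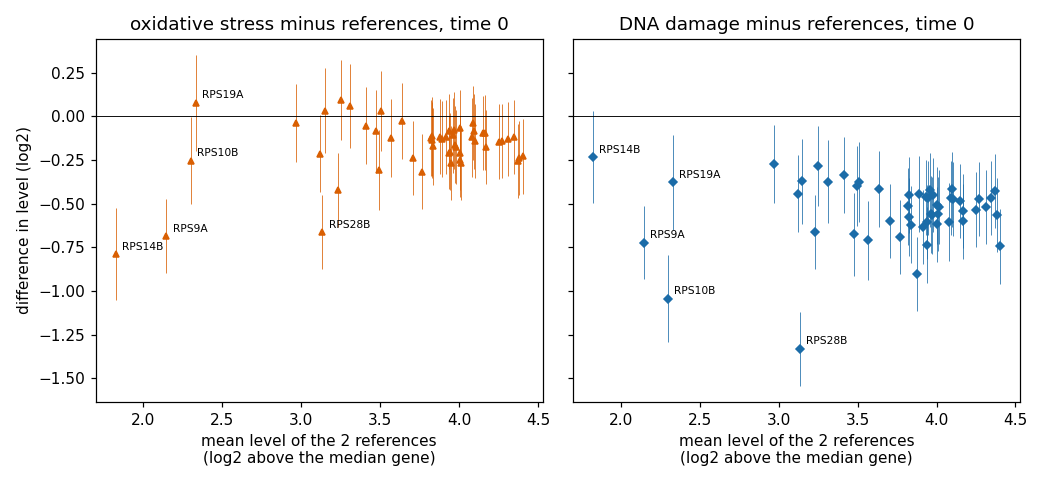
Difference in level at time 0 from the mean of the references (y axis, log2) against that mean (x axis, log2 above the median gene) for the 52 RPS genes, under oxidative stress (left) and DNA damage (right); bars are the standard error of the fit. Under DNA damage all points lie below 0, with RPS28B lowest at −1.33.

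After the shift, the median slope of the RPS genes relative to the median gene was lowest under DNA damage and next lowest under oxidative stress. The small difference under oxidative stress turned its sign on deposited values, as given below. Under DNA damage the median slope of the 52 genes was −0.30, against 0.012 and 0.017 in the references, and the half-life at their median slope was 15.4 min as deposited, while the median tested gene had 30.8 min. The median difference in slope from the references was −0.31, against 0.007 over all tested genes, and 51 of 52 members lay below 0. None passed over all genes (limma, 0 of 3899 genes, 0%), with a smallest adjusted p of 0.111 among members. At an unadjusted p under 0.05, 35 of the 52 were lower, where 11.6% of all genes were. The DNA damage culture had the lowest slope of the 4 in 48 members (92.3%) and in 32.7% of all tested genes.

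The median difference was −0.29 from reference 1 alone and −0.31 from reference 2 alone, and the 2 references differed by −0.012. After quantile normalization it was −0.34 and as deposited −0.29. With array scatter as the error, which leaves out the spread between cultures, it was −0.30. Without members on shared probe sets the culture's median was −0.30 over 39 genes.

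RPS16B, RPS0B and RPS19A had the largest differences under DNA damage. RPS16B, for a protein of the 40S head near the P site, had slopes of −0.12, −0.070, −0.31 and −0.99 in culture order. The DNA damage value lay far below the others (difference −0.89, SE 0.071, limma, adjusted p = 0.111). RPS0B differed by −0.88 (SE 0.072) with the same adjusted p. RPS19A, for a protein needed in late 40S maturation, had 0.038, 0.010, −0.058 and −0.77. It was like the median gene in 3 cultures and lower in 1 (difference −0.80, SE 0.068, limma, adjusted p = 0.111). RPS7A (−0.73) and RPS14B (−0.70) were among the next, and neither passed.

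RPS14B stood near opposite ends of the order. Its slopes were 0.13, 0.040, 0.050 and −0.61, so its mRNA was among the slowest in 3 cultures and among the faster ones under DNA damage. By 60 min it stood 1.09 above its time 0 level in reference 1 and 1.11 above under oxidative stress, relative to the median gene, and at −1.19 under DNA damage.

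The single-copy genes were split under DNA damage. RPS3, whose protein lines the mRNA entry channel, had slopes of −0.001, 0.010, −0.055 and 0.011, and RPS12, of the 40S head, had 0.008, 0.033, −0.034 and −0.038. RPS2, also at the entry channel, had 0.019, 0.037, −0.022 and −0.056. These and RPS20 and RPS31 had slopes between −0.056 and 0.057 in all 4 cultures. RPS13 had 0.017, 0.037, −0.038 and −0.17, and RPS15, whose protein is needed for export of the pre-40S particle, had 0.029, 0.040, −0.023 and −0.30. RPS15 and RPS13 thus lay apart from the other 5 in this culture alone. The DNA damage culture was lowest in 5 of 7 single-copy and 43 of 45 duplicated genes.

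The time courses show how far this went. At 30 min under DNA damage the median change from time 0, relative to the median gene, was −0.097 for the single-copy genes and −0.88 for the duplicated genes. Of the duplicated genes, 18 of 45 were at or below −1 at 30 min and 31 of 45 at 40 min, against 2 and 5 in reference 1 and 5 and 7 under oxidative stress. Of the single-copy genes, 0 of 7 had reached −1 at 30 min and 1 of 7 at 40 min under DNA damage. The share of all tested genes at or below −1 was not counted. The median of the duplicated genes was −1.23 at 40 min, −1.35 at 50 min and −1.34 at 60 min, so most of the change lay in the first 40 min.

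**Figure D3:**
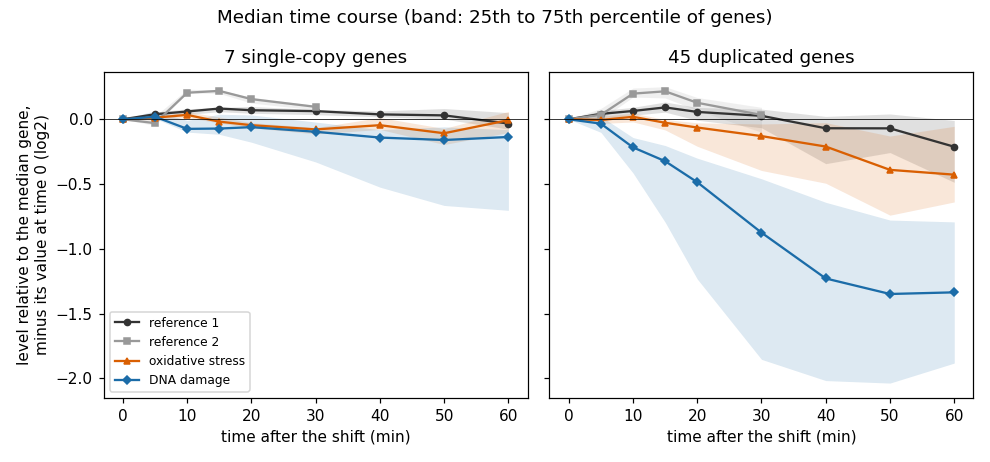
Median change in level from time 0 relative to the median gene (y axis, log2) against time after the shift (x axis, min) for the 7 single-copy (left) and 45 duplicated RPS genes (right), 1 line per culture; bands span the 25th to 75th percentile of genes. At 30 min the DNA damage line stands at −0.097 for single-copy and −0.88 for duplicated genes.

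Position on the array varied with the slope. Over the 52 genes, the slope under DNA damage and the distance below the brightest probe set at time 0 had r = −0.36 (rho −0.47); in reference 1 it was r = −0.15. The points share the same arrays. The 7 single-copy genes lay 0.40 to 0.81 below the brightest probe set under DNA damage, and the duplicated genes 0.27 to 2.96. Among the single-copy genes, RPS15 was the nearest to it and had the lowest slope. The part of array position in the slopes was not tested.

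Under oxidative stress the members were shifted in the same direction by less. Their median slope was −0.044 and the half-life at their median slope 28.5 min as deposited. The median difference from the references was −0.058, against −0.013 over all genes, and all 52 members lay below 0. None passed (limma, 0 of 3899 genes, 0%), and 2 were lower at an unadjusted p under 0.05, where 5.95% of all genes were. Oxidative stress lay below both references in 48 of 52 members and in 38.8% of all tested genes. With values as deposited the median turned to 0.013. The differences of RPS24B (−0.25, SE 0.10), RPS7B (−0.24, SE 0.11) and RPS26B (−0.24, SE 0.068) were the furthest from 0, with limma's adjusted p between 0.473 and 0.748.

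Between the stresses, slopes were higher under oxidative stress than under DNA damage by a median of 0.24, against −0.016 over all genes. None passed (limma, 0 of 3899 genes, 0%), while 26 members were higher at an unadjusted p under 0.05, where 9.75% of all genes were. RPS19A (0.72), RPS0B (0.68) and RPS16B (0.68) had the largest values, with an adjusted p of 0.127. As deposited, the median was 0.28.

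The copies of a pair can be compared within each array, where a constant offset of the array cancels. A change in the spread of an array's values does not cancel. For this, the brightest unshared probe set of each copy was used, which gave 21 RPS pairs among 51 pairs of genes named A and B. The quantity is the slope of A minus the slope of B. Differences in level between copies are not read, because each probe set has its own response; only their change between cultures is.

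Which copy had the lower slope varied from pair to pair. In 8 pairs copy B had the lower slope in all 4 cultures, in 8 pairs copy A did, and 5 pairs, RPS7, RPS14, RPS22 and RPS29 among them, were mixed. These counts were not made over all 51 pairs. Over the 4 cultures the mean difference passed in 6 of 21 pairs (limma), where 29.4% of the 51 pairs passed. B decayed faster in RPS26, RPS24, RPS18 and RPS0, and A in RPS27 and RPS9. With slopes over 5 to 30 min 4 pairs passed, all with B faster, so RPS27 and RPS9 did not. In that window A minus B of RPS9 was −0.30, 0.24, 0.004 and −0.20 in culture order. The share of RPS pairs that passed was near that of all pairs, and the median size of the difference was 0.16, against 0.15 over all 51 pairs. After quantile normalization 0 of the 21 passed, without the oxidative stress culture 0, and without the DNA damage culture 12. The share of all 51 pairs that passed in these settings was not counted.

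RPS26 had the largest mean difference. A minus B was 0.24 and 0.29 in the references, 0.47 under oxidative stress and 0.85 under DNA damage. These values are above 0 in each culture, and both stresses lie above both references. The mean was 0.46 (SE 0.11, limma, adjusted p = 0.0339, n = 4). In half-lives as deposited, RPS26A had 24.2, 34.2, 32.2 and 28.1 min and RPS26B 15.2, 17.2, 12.7 and 8.27 min.

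RPS24 had differences of 0.35, 0.21, 0.47 and 0.72 (mean 0.44, SE 0.089, limma, adjusted p = 0.0292, n = 4). RPS18, whose protein takes part in bridges to the large subunit, had 0.28, 0.27, 0.42 and 0.69 (mean 0.41, SE 0.081, limma, adjusted p = 0.0292). RPS0 had 0.22, 0.15, 0.32 and 0.45 (mean 0.29, SE 0.060, limma, adjusted p = 0.0292). In these 3 pairs, too, the order was DNA damage, oxidative stress, references.

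In the other direction, RPS27 had −0.40, −0.18, −0.45 and −0.37 (mean −0.35, SE 0.055, limma, adjusted p = 0.0292, n = 4), so copy A had the lower slope in all cultures, by least in reference 2. RPS9 had −0.44, −0.067, −0.27 and −0.57 (mean −0.34, SE 0.088, limma, adjusted p = 0.0422), and its references lie far apart. RPS16 (0.33, limma, adjusted p = 0.0775) was next in size and did not pass.

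RPS18B shows what a shared probe set hides. Its brightest probe set, which is shared, had slopes of 0.026, 0.043, −0.016 and −0.16 in culture order. Its unshared probe set had −0.22, −0.22, −0.41 and −0.92. These slopes lay below those of RPS0B in all cultures but DNA damage, and the order of genes by mean slope did not use them. In RPS19B the order was opposite under DNA damage, with −0.31 on the shared and −0.18 on the unshared probe set. Of 13 genes with both kinds, the unshared probe set was the lower under DNA damage in 7.

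**Figure D4:**
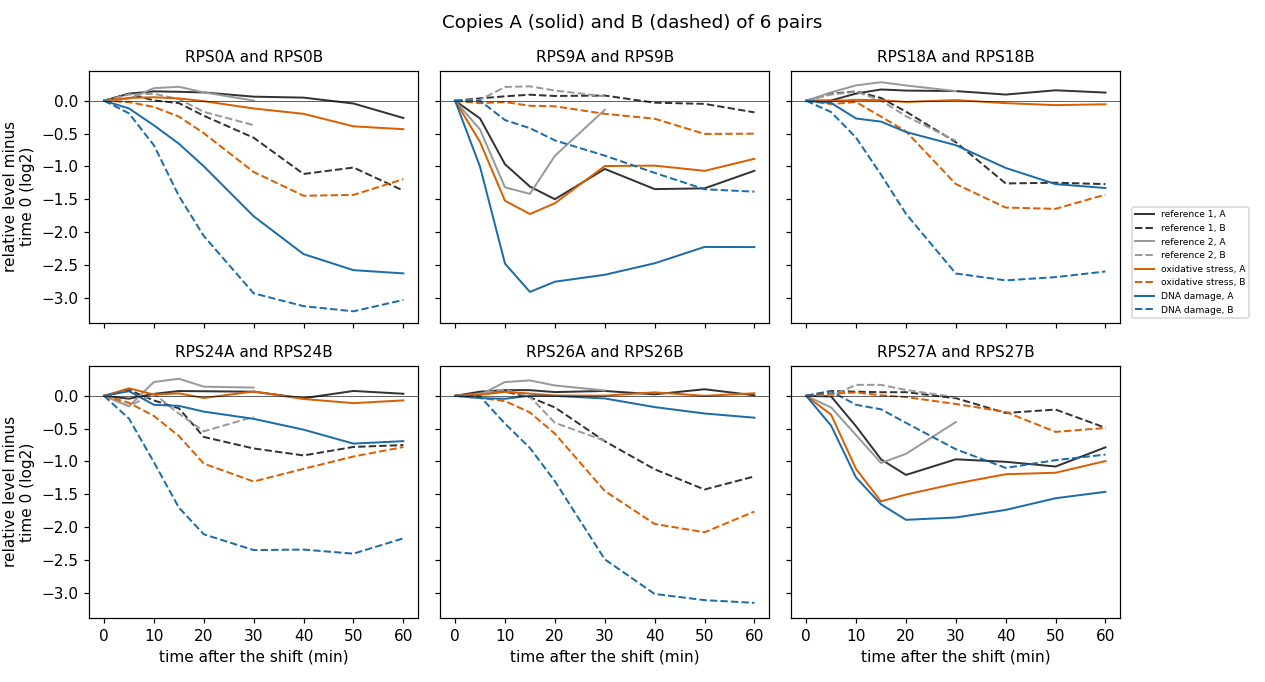
Change in level from time 0 relative to the median gene (y axis, log2) against time after the shift (x axis, min) for copies A (solid) and B (dashed) of the 6 pairs that passed, on unshared probe sets, 1 colour per culture. The slow copies RPS24A and RPS26A lie near 0 in the references and under oxidative stress, RPS9A and RPS27A reach their lowest point by 15 or 20 min, and RPS26B is still going down at 40 min in reference 1.

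The fast copies did not share 1 shape. RPS9A and RPS27A were fast from the start: at 10 min RPS9A stood at −0.97, −1.32, −1.52 and −2.48 in culture order, and RPS27A at −0.46, −0.60, −1.11 and −1.25. Relative to the median gene, both reached their lowest value at 15 or 20 min in every culture. As deposited, both stood lower at 30 min than at 15 min in reference 1 and under DNA damage. They stood higher in reference 2 and under oxidative stress. RPS26B stood at 0.07, 0.10, −0.08 and −0.42 at 10 min, so near its starting level in all but the DNA damage culture, and at −0.69, −0.68, −1.45 and −2.49 at 30 min. RPS0B and RPS18B followed the late course, with −0.56 and −0.63 at 30 min in reference 1. A slope over 30 min averages over the upturn of RPS9A and RPS27A relative to the median gene, and over the lag of RPS26B.

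The difference between copies was widest under DNA damage. The median size of A minus B over the 21 pairs was 0.10 and 0.067 in the references, 0.15 under oxidative stress and 0.37 under DNA damage. It was largest in the DNA damage culture in 16 of 21 pairs. This count was not made over all 51 pairs, so it is not shown to be particular to the RPS pairs. The change of A minus B from the references passed in 12 of 21 pairs (limma), where 49% of all 51 pairs passed, with 8 rising (B relatively faster) and 4 falling (A relatively faster). Over 5 to 30 min, 7 of the 21 passed.

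RPS16 widened most: A minus B was 0.16, 0.10, 0.27 and 0.78, a change of 0.65 under DNA damage (SE 0.045, limma, adjusted p = 0.0106, 1 culture against 2). RPS14 went from −0.093 and 0.009 in the references to 0.58, a change of 0.62 (SE 0.063, limma, adjusted p = 0.0144), so a pair without a clear order got one. RPS26 (0.59) and RPS19 (−0.58) changed as much. RPS19 was at −0.011, −0.014 and −0.025 in the other cultures and at −0.60 under DNA damage, where copy A, with a half-life of 8.88 min as deposited, was faster than copy B with 18.9 min.

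RPS24 (0.44), RPS18 (0.41), RPS22 (−0.39), RPS10 (−0.34), RPS0 (0.27) and RPS25 (0.16) were among the other pairs whose difference changed under DNA damage, with adjusted p between 0.0122 and 0.0462. Of the 6 pairs that differed over the 4 cultures, 4 are in this set, and RPS27 and RPS9 are not. RPS7 is the largest that did not pass: its B copy was the faster by 0.43 and 0.21 in the references and by 0.51 under oxidative stress, while A minus B was −0.027 under DNA damage (change −0.35, SE 0.12, limma, adjusted p = 0.0948).

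Under oxidative stress no pair, RPS or other, passed for a change in the difference between copies (limma). The median size of the change was 0.066 in the RPS pairs, against 0.064 over all 51 pairs. RPS26 changed by 0.21 and RPS18 by 0.14. Between the 2 stresses the difference changed in 7 of 21 pairs, where 23.5% of all pairs did. Among these were RPS14 (−0.63), RPS19 (0.57), RPS16 (−0.50), RPS26 (−0.38), RPS10 (0.36) and RPS18 (−0.27), as oxidative stress minus DNA damage. Over 5 to 30 min, 0 of the 21 passed.

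**Figure D5:**
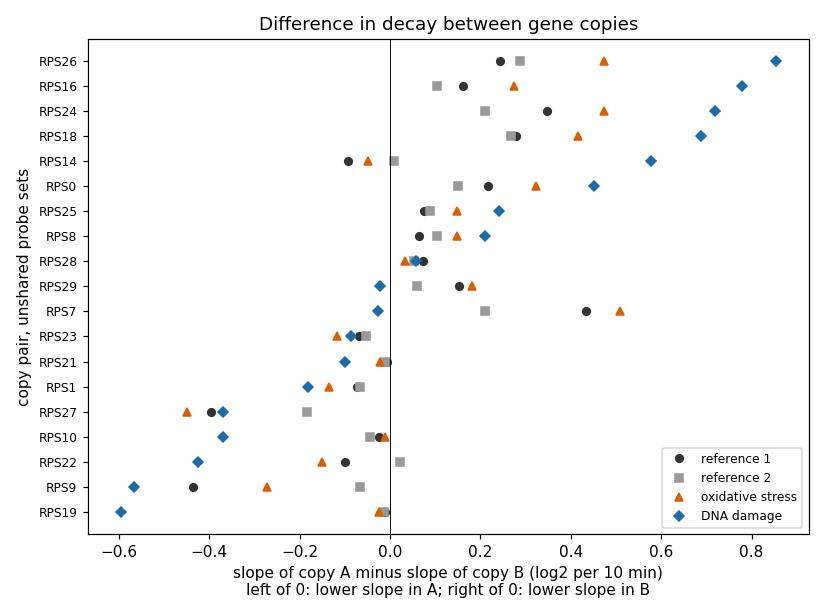
Slope of copy A minus slope of copy B (x axis, log2 per 10 min) in each of the 4 cultures for 19 of the 21 RPS pairs (y axis, ordered by the DNA damage value), on unshared probe sets. The DNA damage points spread from −0.60 (RPS19) to 0.85 (RPS26), wider than the reference points.

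The balance of copies at time 0 is a level, so its changes are not set against those of the slopes. In RPS28, the level of A minus B was 0.90, 0.85, 1.29 and 1.58 in culture order. The technical arrays lay furthest apart in reference 1, at 0.97 and 0.82. Both stresses lay above both references. The change under DNA damage was 0.71 (SE 0.22, limma, adjusted p = 0.0485, 1 culture against 2) and passed, 1 of 21 pairs, where 7.84% of all 51 pairs passed. It did not pass with the first array of time 0 only. RPS28A itself stood at 4.06, 3.95, 3.76 and 3.39, so the change lay mostly in copy B. RPS1 (−0.39), RPS14 (−0.28) and RPS9 (−0.27) followed and did not pass (limma, adjusted p between 0.58 and 0.925).

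Under oxidative stress no pair, RPS or other, passed for a change of its balance at time 0 (limma). The median size of the change was 0.16 in the RPS pairs and 0.16 over all 51 pairs. RPS14 had A minus B at 2.53, 1.82, 2.90 and 1.90. The oxidative stress culture was highest, and the references lay apart by as much as the change of 0.72 (SE 0.22, limma, adjusted p = 0.0959). RPS9 went from −1.78 and −1.58 to −2.23 (change −0.55, limma, adjusted p = 0.348). RPS28 (0.41, adjusted p = 0.554) and RPS7 (0.30, adjusted p = 0.841) were next. All pairs share 1 standard error in this fit.

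Other genes of the 40S and its control were set beside the RPS genes. The 75 large subunit genes had nearly the same medians: a slope difference of −0.30 under DNA damage, with 0 passing and 49 lower at an unadjusted p under 0.05, a level difference of −0.51, and 5 of 75 faster than the median gene in the references. Factors that assemble the 40S subunit behaved otherwise. Of 17 tested, 15 passed as faster than the median gene in the references (median slope −0.64), led by DIM1 (−1.01), which dimethylates the small rRNA, RRP12 (−0.82), which exports the particle, LTV1 (−0.79) and TSR4 (−0.73), a chaperone of Rps2. Their slopes differed by a median of 0.012 under DNA damage, with 0 passing (limma; 3 higher and 2 lower at an unadjusted p under 0.05), and their level by −0.54, with PNO1 (−1.34, limma, adjusted p = 0.0439) passing.

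Of the 5 proteins bound to the 40S, 0 passed in any comparison of levels or slopes (limma). At an unadjusted p under 0.05, 1 was higher and 2 were lower in slope under DNA damage. ASC1, the yeast RACK1, had slopes of 0.015, 0.034, −0.030 and −0.16, and STM1, which guards idle ribosomes, had 0.036, 0.053, 0.006 and −0.12, both lowest under DNA damage as in most RPS genes. Among 11 tested regulators of ribosomal protein gene transcription, ESA1, a histone acetyltransferase, was slower than the median gene in the references (0.16, limma, adjusted p = 0.0449), and 0 passed in the comparisons of stress with reference; at an unadjusted p under 0.05, 2 were higher in level under oxidative stress, and in slope 1 was lower under oxidative stress, and 1 was higher and 2 were lower under DNA damage. In the mRNA decay machinery, 3 of 34 tested genes were slower and 6 faster than the median gene in the references, and 0 passed in level or slope in either stress (limma; at an unadjusted p under 0.05, 3 slopes were higher and 2 lower under DNA damage, 1 was lower under oxidative stress, and 1 level was higher and 1 lower in each stress). LSM5 (−0.32) and PUB1 (−0.31) were the fastest, and SKI7 (0.20) and DHH1 (0.19) the slowest of those that passed.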

How the data were processed

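The 37 Affymetrix yeast arrays were deposited by the authors as log2 values, 1 for each probe set, from RMA (submitters' processing notes). Its version and any later scaling are not stated in those sources. Values run from 3.69 to 17.5 over 5900 probe sets. Platform annotation named 5498 probe sets (12 symbols updated), or 5449 genes, each read from its brightest probe set. Shared probe sets are those with the suffixes _s_at, _x_at or _a_at. No column was left unmapped.

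Each array was centred on the median of its named probe sets, because technical arrays at time 0 differed. Each culture gave 1 level (mean of 2 technical arrays) and 1 least-squares slope over 6 time points per gene. Genes with a mean above 11.04 (30th percentile, arrays of 0 to 30 min) were tested: 3899. limma 3.58.1 in R 4.3.3 (lmFit, eBayes) was used, with Benjamini-Hochberg adjustment over all tested genes, or over 51 pairs, at 0.05. Residual degrees of freedom were 1, or 3 for the mean over cultures, which took the 4 cultures of 3 conditions as 4 values. Half-lives are 10 min divided by the slope as deposited, with the sign turned.

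Genes named in full are the 6 fastest and 6 slowest by mean slope, up to 6 called members per comparison (the 3 largest where none was called), the 6 pairs with the largest difference in slope, the 4 pairs with the largest change in level per stress, single-copy genes, 2 genes on either side of the median, 6 fixed other genes and up to 4 per list, except that a few members are not reported here by name. The lists (large subunit, regulators, assembly, 40S-bound, mRNA decay) come from textbook knowledge. The members and lists were chosen with earlier results of these data known. Alternatives were the scaling, filter, probe set, arrays at time 0, time window, error and cultures left out. The steps were tested on simulated data. No sequence or genome was used.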

Additional observations from a re-analysis of the deposited data

Results flagged for a closer look

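The test of the difference in decay between copies found 12 RPS pairs in which A minus B (slope, log2 per 10 min) changed from the references to DNA damage (limma, 12 of 21 RPS pairs, where 49% of all 51 pairs passed; over 5 to 30 min, 7 of 21). The changes included RPS16 0.65, RPS14 0.62, RPS26 0.59, RPS24 0.44, RPS18 0.41, RPS0 0.27 and RPS25 0.16, and RPS19 −0.58, RPS22 −0.39 and RPS10 −0.34. The same test between oxidative stress and DNA damage found 7 of 21 pairs, where 23.5% of all pairs passed, and 0 of 21 over 5 to 30 min; among the 7 were RPS14 −0.63, RPS19 0.57, RPS16 −0.50, RPS26 −0.38, RPS10 0.36 and RPS18 −0.27. Each stress had 1 culture, so these are differences between cultures. The 2 comparisons share the DNA damage culture.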

How the results depend on the processing

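Counts are of members or pairs that passed, out of 52 and 21, and medians are over the same genes or pairs. The share of all tested genes or pairs that passed was not counted for these settings, so the counts do not set the RPS genes apart. In the fit of deposited slopes all genes shared 1 standard error. With values as deposited, levels passed in 3 under DNA damage and in 5 between the stresses (median 0.76), slopes in 12 (median −0.29) and 8 (0.28), and the oxidative stress median turned to 0.22 in level and 0.013 in slope. Less the slope of all genes, the reference median turned to −0.0010 on that scale. With quantile normalization, levels passed in 0 under DNA damage (median −0.032), level medians were −0.028 under oxidative stress and −0.022 between the stresses, and slope medians −0.026 under oxidative stress, −0.34 under DNA damage and 0.29 between the stresses. Reference slopes then passed in 3 (median −0.0044), copy differences over the cultures in 0, and the median size of the pair change between the stresses was 0.33. Without the filter, 3 levels passed under DNA damage, and with the first or the second array of time 0 alone, 0. With the second array, 1 pair passed in level under oxidative stress, and with the first, 0 under DNA damage. Over 5 to 30 min, reference slopes passed in 0 (median −0.012), and slope medians were −0.046 under oxidative stress, −0.31 under DNA damage and 0.25 between the stresses. Pairs then passed in 7 under DNA damage and in 0 between the stresses (median size 0.23), and under oxidative stress their median size was 0.095. With the array scatter as error, slopes passed in 3 (oxidative stress, median −0.063), 44 (DNA damage, −0.30) and 37 (between the stresses, 0.23). The mean of probe sets gave slope medians of −0.31 under DNA damage, 0.23 between the stresses and 0.019 in the references. Members on unshared probe sets had slope medians of −0.061 and −0.32 in the stresses, and brightest unshared probe sets −0.066, −0.32 and, in the references, 0.020. Leaving out 1 reference gave medians between −0.22 and −0.072 (level, oxidative stress), between −0.064 and −0.055 (slope, oxidative stress) and between −0.31 and −0.29 (slope, DNA damage), and pair sizes between 0.11 and 0.18 (level, DNA damage). Leaving out 1 culture gave between 0 and 12 pairs with a difference over the cultures. In these settings the cause was not tested. Of the 154 alternative values, the other 99 stayed within 1.5 times the count, or moved by no more than 1 SD of the median between the 2 references, which is as small as 0.0036 for slopes. The median slope difference under DNA damage kept its sign under each alternative run. No paired analysis was possible because the cultures share no replicate numbers in the labels. Culture number, and signal near the top of the arrays, limit these results.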

Other observations

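Relative to the median gene, RPS9A stood higher at 30 min than at 15 min in all 4 cultures, by 0.27, 1.28, 0.73 and 0.26 (references 1 and 2, oxidative stress, DNA damage). On values as deposited, which are not centred, the differences were −0.25, 1.48, 0.80 and −0.043, so 2 of the 4 have the other sign. RPS27A differed by 0.0004, 0.62, 0.27 and −0.20 relative to the median gene, and by −0.52, 0.82, 0.34 and −0.51 as deposited. No test was run on these values.

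Between 30 and 60 min, in the 3 cultures with late arrays, the RPS genes had a median slope relative to the median gene of −0.050 (reference 1), −0.024 (oxidative stress) and −0.12 (DNA damage). In this window the slope was below 0 in 46, 35 and 42 of the 52 genes. The share of all tested genes below 0 was not counted for it.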
